A study of Homo sapiens with 12 samples.

Results

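CDCA7 was overexpressed in KYSE180, an established line of human esophageal squamous cell carcinoma, and 3 libraries labelled CDCA7 overexpression were compared here with 3 libraries of the native line, labelled WT and called controls below. The genes described are those with a mean FPKM (fragments scaled to gene length and library size) of at least 1 over these 6 libraries, which are 12722 of the 58735 genes in the table. The series holds 12 libraries in all, the others being native KYSE150, another line of the same cancer, and KYSE150 with a hairpin RNA against CDCA7. Cells of every group were grown in RPMI-1640 with fetal bovine serum and antibiotics. The construct and its promoter, and whether the overexpressing cells are a clone or a pool, are not given in the sources used here, and the control is the native line, with no empty vector stated. Separate cultures for the 3 libraries of a group are not stated in the labels. A p-value here sets the difference between the groups against the scatter of these samples, which may be technical alone.

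CDCA7 is a nuclear zinc-finger protein whose gene is a known target of MYC and E2F1. It brings HELLS, a motor that slides nucleosomes, to chromatin, and the pair helps to keep DNA methylation in place after replication. Squamous carcinoma cells express the transcription factors TP63 and SOX2 and the basal keratins KRT5 and KRT14, and switch between growth and differentiation programmes that respond to growth factors, interferon and stress. Because RNA was taken from whole cultures, fewer cells of a type and less RNA per cell cannot be told apart.

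The 6 libraries held between 16282281 and 18636148 reads, and mitochondrial genes took 4.76% to 6.38% of the reads in the controls and 7.97% to 8.65% with overexpression; the part of this difference in the results was not tested. All 10 squamous epithelial markers were among the genes described, with summed levels of 1878 to 3803 FPKM in the controls and 3979 to 4629 FPKM with overexpression, and limma called 0 of the 10 (4 had an unadjusted p under 0.05, and limma-voom called 1). Of 13 fibroblast markers 3 reached a mean of 1 FPKM, 3 were at 0 in all 6 libraries, and the sum of the 13 was 14.2 to 28.2 FPKM in the controls and 27.4 to 28.2 FPKM with overexpression. Leukocyte and endothelial markers were near 0: none of the 14 and 9 reached a mean of 1 FPKM, and the highest value of any was 1.29 FPKM. CDCA7 itself was at 24, 18.2 and 17.4 FPKM in controls 1, 2 and 3 and at 44.6, 59.1 and 57.9 FPKM in the overexpressing libraries, without overlap (log2 change 1.40, SE 0.17, adjusted p = 0.00947). RNA of the construct and of the native gene cannot be told apart in these counts. Leaving out overexpression replicate 3 ends that call, at an adjusted p of 0.0573.

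Of the 12722 genes, 12387 were tested, meaning that 3 or more of the 6 libraries, scaled to a common median size, held at least 10 of their reads. The 335 others are mostly short, with a median gene length of 120 bases against 4591 for the tested ones, and have no test here. In 20 tested genes every overexpressing library and no control reached 10 reads, and in 17 genes the reverse held. These passed the read filter only through the group where they are high and had to differ. Of these 37, 30 were called, and each one named below is marked as such. The mean of 1 FPKM can also be reached through 1 group alone. That is marked below only for genes called in every fit without 1 library. Changes are differences of log2(FPKM + 1), overexpression minus control, from limma, and a call needs a p under 0.05 after Benjamini-Hochberg adjustment over all 15944 genes tested. Over that whole set 4.65% were called higher and 4.43% lower, and the groups did not overlap for 35.1%. Among the genes described 655 were called higher and 500 lower, and 11232 did not pass; 188 rose and 91 fell by at least 1. The groups did not overlap for 4461 of them, and the median change was 0.02. The split depends on the scaling: with libraries scaled to total reads 433 were higher and 941 lower, and the median over all genes tested moved by -0.08.

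The 3 controls differed from each other more than the 3 overexpressing libraries did. The median SD of log2(FPKM + 1) over the tested genes was 0.19 in the KYSE180 controls and 0.14 with overexpression, against 0.06 in the KYSE150 controls and 0.22 in KYSE150 with the hairpin RNA. An SD over 0.5 was found in 844 genes in the KYSE180 controls and in 200 genes with overexpression. Across genes, controls 2 and 3 correlated least with each other among the controls (0.947), while the overexpressing libraries correlated at 0.977 to 0.991 and pairs across the groups at 0.920 to 0.956. Genes share the library they were read from, so these correlations are descriptions only.

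**Figure D1:**
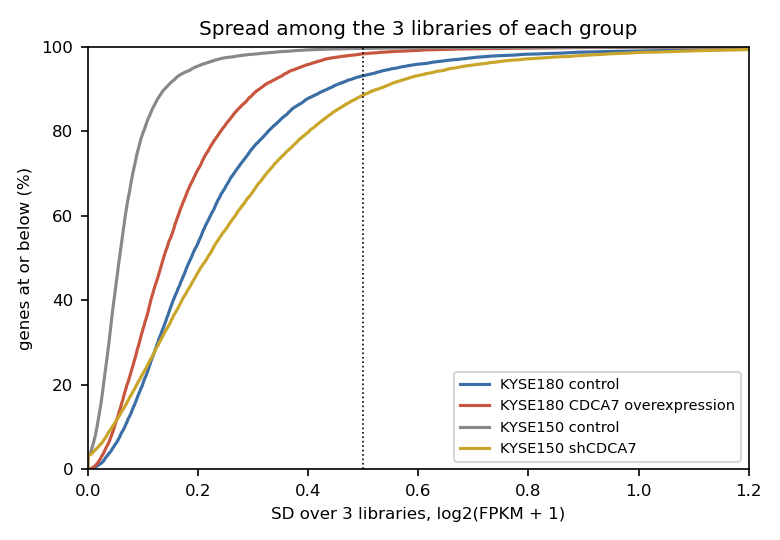
Share of the 12387 tested genes (vertical axis, percent) whose SD over the 3 libraries of a group is at or below the value on the horizontal axis, in log2(FPKM + 1) units, with 1 line for each of the 4 groups and a dotted line at 0.5. The KYSE180 controls lie to the right of the overexpressing libraries, with medians of 0.19 and 0.14, and the KYSE150 controls lie far to the left, at 0.06.

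Among the 844 genes with a wide spread, control 2 was the library farthest from the other controls in 448, control 3 in 290 and control 1 in 106. In the genes where control 2 stood apart it was mostly the low library (337 of 448), and in 309 of 448 it lay nearer to the overexpressing libraries than the other controls did. The same was so in 201 of the 290 genes where control 3 stood apart, and in 6 of the 106 for control 1. The widest spread belonged to the interferon-induced gene IFI27, at 62.9, 0.74 and 52.1 FPKM in controls 1, 2 and 3 and 2.1, 0.996 and 1.28 FPKM with overexpression. KRT4, a keratin of differentiated squamous epithelium, followed with controls against overexpressing libraries at 79.1, 1.04 and 48.5 against 1.7, 1.55 and 1.59 FPKM. In both genes control 2 sits at the level of the overexpressing libraries, and neither passed the test (adjusted p = 0.157 and 0.144).

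The other 8 of the 10 widest genes also had control 2 far below controls 1 and 3. They are the antiviral genes IFI6, MX1, OAS2 and TRIM22, the lysosomal protein gene LAMP3, the iron-binding defence protein gene LCN2, the detoxifying enzyme gene GSTA1 and the collagen cross-linking gene LOXL4. LCN2 was at 241, 19.7 and 491 FPKM in the controls and 12.8, 11 and 14 FPKM with overexpression, a change of -3.32 (SE 0.99, adjusted p = 0.0733). MX1, which blocks viral replication, was at 148, 4.58 and 68.4 against 2.15, 2.75 and 2.81 FPKM (change -3.44, SE 1.03, adjusted p = 0.0729). The groups do not overlap for either gene, but the range of the controls on the log2 scale is wider than the change. Of the 27 genes that were lower by at least 2 on the log2 scale, 9 were called, while 15 of the 17 that were higher by at least 2 were called.

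**Figure D2:**
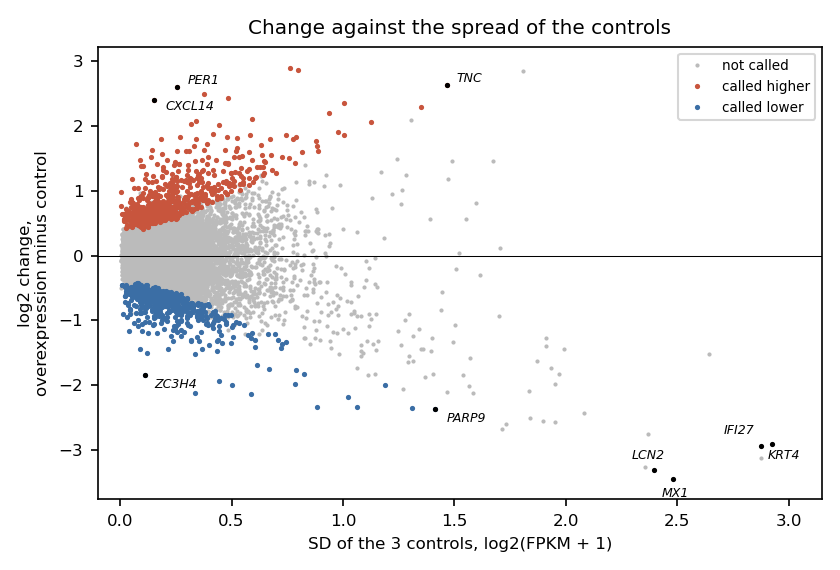
Log2 change of each tested gene (vertical axis, overexpression minus control) against the SD of its 3 control libraries (horizontal axis, log2(FPKM + 1) units), grey where not called, red where called higher and blue where called lower; black points are 9 genes named on the plot, called or not. The largest falls, such as MX1 at -3.44 and IFI27 at -2.90, lie at the right, where the controls disagree, and are not called.

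Calls changed with the libraries used. Among the genes described, 73, 1722 and 1953 were called without controls 1, 2 and 3, and 20, 173 and 16 without overexpression replicates 1, 2 and 3. All 1155 called genes had the same direction in each of these 6 fits. The calls of single genes named in the text changed likewise: of 78 called genes other than CDCA7 whose changes are printed, 22, 72 and 69 kept the call in the fits lacking control 1, 2 or 3, and 10, 30 and 11 in those lacking overexpression replicate 1, 2 or 3. Over all the genes described, 12 were called in each of the 6 fits.

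In those 12 genes the call rests on no single library, but 3 of them (KRTDAP, RF00019 and AL022334.2) passed the read filter only through the overexpressing group. TGM4 and AP003469.4, with control means of 0.481 and 0.336 FPKM, reached the mean of 1 FPKM only through that group, as did KRTDAP and AL022334.2. PRR22, with a mean of 0.276 FPKM in the overexpressing libraries, reached it only through the controls. Values are listed below as controls 1, 2 and 3 against overexpression replicates 1, 2 and 3. CXCL14, a chemokine of squamous epithelium on chromosome 5 (135570679 to 135579279, GRCh38), was at 2.86, 3.41 and 2.57 FPKM in the controls and 20.5, 18.4 and 20.4 FPKM with overexpression (change 2.40, SE 0.13, adjusted p = 0.00129, the smallest among the genes described). The collagenase MMP2, which degrades basement membrane, was at 2.25, 3.67 and 4.09 against 16.9, 17.1 and 16.8 FPKM (change 2.07, SE 0.18, adjusted p = 0.00456). In both genes the overexpressing libraries lie close together, far above every control. The clock repressors PER1 and NR1D1 and the decay factor ZFP36, all described below, are also among the 12.

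ZC3H4, a zinc-finger protein that ends the transcription of unstable noncoding RNA (chromosome 19, 47064187 to 47113752), was at 12.8, 11 and 11.1 FPKM in the controls and 2.5, 2.69 and 2.32 FPKM with overexpression. It fell by 1.85 (SE 0.12, adjusted p = 0.00206), and no control comes near the 3 overexpressing libraries. KRTDAP, a secreted protein of differentiating keratinocytes, was at 0.264, 0.163 and 0.307 against 2.43, 2.53 and 2.38 FPKM (change 1.47, SE 0.10, adjusted p = 0.00206). TGM4, a transglutaminase known from prostate, was at 0.321, 0.534 and 0.587 against 3.44, 3.86 and 3.37 FPKM (change 1.63, SE 0.12, adjusted p = 0.00305). KRTDAP rests on 3, 2 and 4 reads in the controls and 26, 30 and 29 with overexpression. For both genes the added 1 makes the log2 change smaller than the ratio of FPKM. PRR22, a proline-rich protein gene, fell (2.45, 2.24 and 2.67 against 0.342, 0.124 and 0.361 FPKM, change -1.44, SE 0.12, adjusted p = 0.00403). The remaining 3 of the 12 are noncoding and rose: the Y RNA family locus RF00019 with identifier ENSG00000252202, and the long noncoding RNAs AP003469.4 and AL022334.2. That RF00019 locus held 4 reads in each control and 15 to 17 with overexpression, and AL022334.2 held 1 to 3 and 14 to 19. Of the 4 tested loci that share the name RF00019, another (ENSG00000207425) was called lower (change -0.82, SE 0.14, adjusted p = 0.0227) and the other two did not pass.

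**Figure D3:**
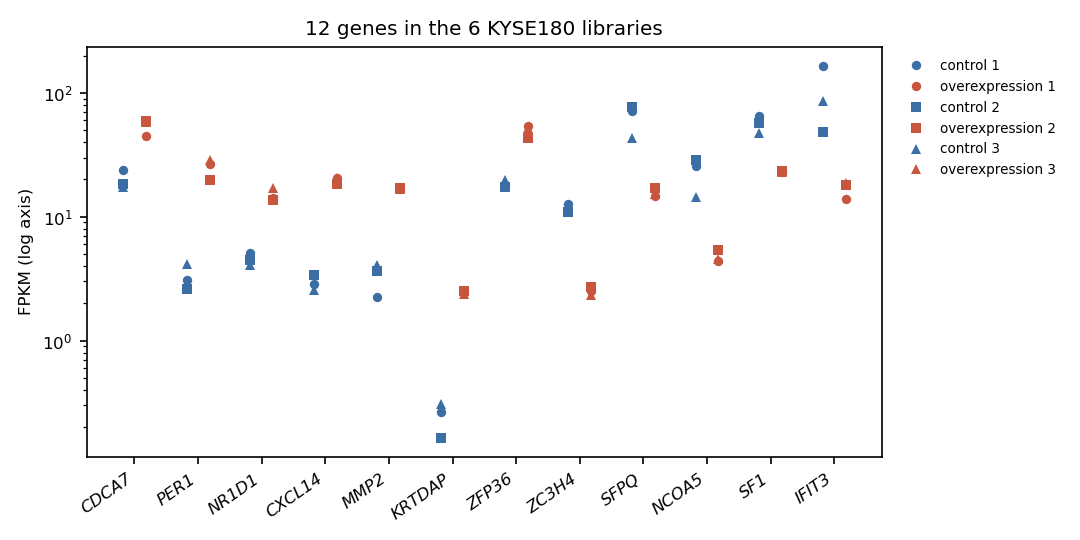
FPKM on a log axis of 12 genes in the 3 control libraries (blue) and the 3 overexpressing libraries (red), with 1 symbol for each replicate number. Control and overexpressing libraries are apart for each gene. The spread within a group differs by gene: controls of IFIT3 range from 48.1 to 166 FPKM, and overexpressing libraries of PER1 from 19.7 to 28.9 FPKM.

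Falls of small p also included low-abundance genes. SYK, a tyrosine kinase of immune receptor signalling, was at 3.49, 3.18 and 2.38 FPKM in the controls and 0.415, 0.375 and 0.635 FPKM with overexpression (change -1.44, SE 0.14, adjusted p = 0.0086). EME2, a subunit of a nuclease that cuts branched DNA, was at 2.74, 2.49 and 2.78 against 0.662, 0.824 and 0.896 FPKM (change -1.03, SE 0.11, adjusted p = 0.0086). The zinc-finger gene ZNF587B was at 2.7, 2.46 and 2.24 against 0.466, 0.522 and 0.644 FPKM (change -1.16, SE 0.11, adjusted p = 0.00707). In these 3 genes the controls lie close together and far above the overexpressing libraries, and the calls held in 5, 4 and 5 of the 6 fits without 1 library.

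By size, the rises were led by SULT1E1, the sulfotransferase that inactivates estrogens, at 0.445, 2.5 and 0.364 FPKM in the controls and 12.7, 13.6 and 13.3 FPKM with overexpression (change 2.90, SE 0.33, adjusted p = 0.00871). TNC, the matrix glycoprotein tenascin C, was at 1.07, 9.88 and 0.711 against 15.6, 21.9 and 23.4 FPKM (change 2.64, SE 0.63, adjusted p = 0.0424). AREG, a ligand of the EGF receptor, was at 3.43, 25.8 and 5.97 against 44, 48.8 and 42.2 FPKM (change 2.29, SE 0.57, adjusted p = 0.0462). In all 3 genes control 2 is the highest control, and the groups do not overlap. The other large rises were PER1, CXCL14, the mitochondrial ribosomal RNA MT-RNR2, the microRNA gene MIR205 and the noncoding or pseudogene loci AC007389.5, AP001033.2 and AC005326.1. Among the falls, WIF1, a secreted inhibitor of Wnt ligands, was at 9.24, 2.98 and 23.4 FPKM and 1.15, 0.848 and 0.894 FPKM (change -2.35, SE 0.55, adjusted p = 0.0415), again with control 2 nearest to the overexpressing libraries. The other large falls were the interferon-induced genes PARP9, HERC6, IFIT3, IFI44 and IFIT1, the coactivator NCOA5, and the noncoding genes MIR4664, RNVU1-6 and AC121764.1, of which MIR4664 and RNVU1-6 passed the filter only through the controls.

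The gene lists described from here on were chosen with earlier results of these data known, so their counts are descriptions and not tests. Each count is to be read beside the shares over all genes tested, 4.65% higher and 4.43% lower. Most genes of the circadian clock were higher. The clock is a loop in which CLOCK and ARNTL switch on the PER, CRY and NR1D genes, whose products then repress it. Of 20 clock and clock output genes 14 reached a mean of 1 FPKM. Of these, 8 were called higher and 1 lower, with a median change of 0.63 against -0.00 over all genes tested. PER1 was at 3.08, 2.62 and 4.12 FPKM in the controls and 26.4, 19.7 and 28.9 FPKM with overexpression (change 2.60, SE 0.19, adjusted p = 0.00247). NR1D1, which represses ARNTL, was at 5.12, 4.49 and 4.04 against 14, 13.7 and 16.9 FPKM (change 1.52, SE 0.14, adjusted p = 0.00549). Both had every overexpressing library above every control and were called in all 6 fits that left out 1 library.

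DBP, a clock output factor, was at 3.42, 2.71 and 4.74 against 24.8, 12.7 and 16.9 FPKM (change 2.02, SE 0.25, adjusted p = 0.0104). TEF, a relative of DBP, BHLHE40, CRY1, CRY2 and NR1D2 were the other members called higher. ARNTL2, a positive arm gene, was at 16.6, 15.5 and 17.7 against 11.8, 12.5 and 11.3 FPKM (change -0.45, SE 0.11, adjusted p = 0.0454). Its relative ARNTL did not pass (2.81, 3.78 and 4.86 against 5.7, 5.54 and 6.64 FPKM, adjusted p = 0.0869), nor did NFIL3 (adjusted p = 0.497). Without controls 1, 2 and 3 the higher members numbered 2, 8 and 10, and without overexpression replicates 1, 2 and 3 they numbered 2, 3 and 2. The median stayed between 0.57 and 0.72.

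The E-box CACGTG is the site that CLOCK and ARNTL are known to bind. It was searched in the 250 bases before the start of each gene in the RefSeq promoter table, which uses GRCh38.p14, and reads the same on either strand. It lies in 3 of the 12 clock genes with a promoter there, all 3 called higher, and in 6.49% of the 27305 promoters in the table and 9.18% of those of the tested genes. The windows below show it in capitals, 5′ to 3′ on the strand of the gene.
PER1 (chr17:8152557-8152592, minus strand): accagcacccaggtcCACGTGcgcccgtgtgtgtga
TEF (chr22:41367245-41367280, plus strand): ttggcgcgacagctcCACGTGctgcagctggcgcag
BHLHE40 (chr3:4979187-4979212, plus strand): tccaaCACGTGagactcatgtgatga
The cyclic AMP element TGACGTCA was in 0 of the 12 clock promoters and in 1.77% of all promoters. Such matches describe these letters in this window only.

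Growth factor response genes were higher as well. Of 28 immediate-early and AP-1 genes, which cells switch on within minutes of a stimulus, 14 were called higher and 0 lower (median 0.63). FOS was at 28.6, 15.6 and 47.6 FPKM in the controls and 97.7, 96.5 and 104 FPKM with overexpression (change 1.80, SE 0.34, adjusted p = 0.0267). JUN, its partner in the AP-1 dimer, was at 33.6, 28.4 and 56.8 against 108, 114 and 111 FPKM (change 1.52, SE 0.23, adjusted p = 0.018). FOSB was at 1.87, 0.504 and 6.09 against 11.7, 11.4 and 12.9 FPKM (change 2.06, SE 0.48, adjusted p = 0.0401). The order of the controls is the same in these 3 genes: control 2 lowest, control 3 highest, and all below the overexpressing libraries. Control 2 was the lowest control in 19 of the 28 genes. ZFP36, which shortens the life of such messenger RNAs, was at 17.9, 17.3 and 19.7 against 53.7, 43.3 and 51.8 FPKM (change 1.39, SE 0.13, adjusted p = 0.00549). EGR1 (148, 76.4 and 173 against 197, 227 and 223 FPKM, adjusted p = 0.122) and MYC (97.9, 77.4 and 121 against 151, 148 and 163 FPKM, adjusted p = 0.0573) did not pass. The higher members numbered 1, 13 and 18 without controls 1, 2 and 3 and 1, 4 and 1 without overexpression replicates 1, 2 and 3.

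The MAP kinase feedback list, mostly of genes that damp this signalling, had 6 of 16 members called higher and 0 lower (median 0.38). DUSP6, the phosphatase of ERK, was at 0.314, 1.13 and 1.06 against 5.49, 4.49 and 4.87 FPKM (change 1.73, SE 0.20, adjusted p = 0.00906). IER3 was at 121, 251 and 129 against 675, 480.1 and 583 FPKM (change 1.86, SE 0.30, adjusted p = 0.0195). PHLDA1, DUSP1, DUSP5 and ERRFI1, an inhibitor of the EGF receptor, were the others. Of 8 receptors and ligands of the EGF receptor family, only AREG was called, a call kept in 1 of the 6 fits without 1 library; EGFR itself was at 94.5, 75.6 and 104 against 72.6, 117 and 107 FPKM (adjusted p = 0.788) and ERBB2 at 18.1, 14.4 and 15.3 against 14.5, 13.8 and 14.3 FPKM (adjusted p = 0.434). Without controls 1, 2 and 3 the higher MAP kinase feedback genes numbered 3, 7 and 6, and without overexpression replicates 1, 2 and 3 they numbered 0, 3 and 0.

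The glucocorticoid receptor list, of genes induced by or acting with that steroid receptor, had 4 of 14 members higher and 0 lower (median 0.44). Among them were KLF9 (0.855, 1.29 and 1.64 against 3.6, 3.68 and 3.89 FPKM, change 1.08, SE 0.15, adjusted p = 0.0141), ERRFI1 and the kinase gene SGK1. MT2A, a metallothionein, was at 147, 41.2 and 61.3 FPKM in the controls and 75.2, 63.3 and 78.4 FPKM with overexpression and did not pass. The 4 became 0, 4 and 6 without controls 1, 2 and 3 and 0, 1 and 0 without overexpression replicates 1, 2 and 3.

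Interferon-stimulated genes, which cells switch on to resist viruses, were lower. Of 51 members 11 were called lower and 0 higher, and all 51 changes were below 0, with a median of -1.32. IFIT3 was at 166, 48.1 and 85.3 FPKM in the controls and 13.8, 17.9 and 18.6 FPKM with overexpression (change -2.34, SE 0.39, adjusted p = 0.0214). HERC6 was at 48.2, 11.1 and 15.6 against 2.51, 3.85 and 3.43 FPKM (change -2.34, SE 0.46, adjusted p = 0.0293). PARP9 was at 71.3, 10.2 and 46.3 against 4.49, 6.47 and 5.76 FPKM (change -2.37, SE 0.60, adjusted p = 0.0487). In each of them control 1 is highest and control 2 lowest, yet control 2 still lies above every overexpressing library. IFIT1, a partner of IFIT3 that binds viral RNA, was at 126, 23.6 and 50.7 against 14.4, 11.8 and 11.7 FPKM (change -2.0, SE 0.50, adjusted p = 0.0484). IFI44 was at 117, 28.9 and 80.9 against 12.8, 13.8 and 13.9 FPKM (change -2.19, SE 0.43, adjusted p = 0.0296), in the same order of libraries. The other called members were the RNA sensors DDX58 and IFIH1, TRIM25, SAMD9, PARP12 and PARP14.

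The list as a whole shows the same order of libraries. Its mean log2(FPKM + 1) was 5.81, 3.61 and 5.05 in controls 1, 2 and 3 and 3.22, 3.29 and 3.29 with overexpression, and control 2 was the lowest control in 47 of the 51 genes. The groups did not overlap, with overexpression lower, for 29 of the 51, against 1977 of the 12387 tested genes described. In either direction the share was 35.1% over all genes tested. IFI6 (1107, 26.6 and 645 against 36.8, 26 and 28 FPKM, adjusted p = 0.129) and IFITM3 (639.9, 176 and 560.2 against 199.9, 145 and 182 FPKM, adjusted p = 0.129), the most abundant members that did not pass, overlap through control 2. Without control 2, 46 of the 51 were called lower; without controls 1 and 3 the number was 3 and 7, and without any 1 overexpressing library it was 0. The median ran from -1.89 to -0.93 over these fits.

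The interferon element, searched as GAAANNGAA on both strands, is part of the known site of interferon response. It lies in the 250 bases before the start of 22 of the 41 listed genes with a promoter in the RefSeq table, and in 7.06% of all promoters in the table. Of 10 called members with a promoter 7 hold it. The windows below, chosen from called genes and from IFI27, the gene of widest control spread, show it in capitals; TTCNNTTTC is the same element on the other strand.
IFIT1 (chr10:89392493-89392531, plus strand): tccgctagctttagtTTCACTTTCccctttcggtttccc
IFIT3 (chr10:89327861-89327899, plus strand): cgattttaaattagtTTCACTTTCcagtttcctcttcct
IFI44 (chr1:78649757-78649788, plus strand): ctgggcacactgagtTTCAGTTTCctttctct
IFI27 (chr14:94110614-94110652, plus strand): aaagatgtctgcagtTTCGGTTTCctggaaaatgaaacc

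Other immune genes were also low in control 2. HLA class I and antigen processing genes had 0 of 20 members called either way by limma (median -0.68; 4 had an unadjusted p under 0.05, and limma-voom called 1), with mean levels of 5.95, 4.69 and 5.70 in controls 1, 2 and 3 and 4.77 to 5.00 with overexpression. Without control 2, 13 of the 20 were called lower, and in each other fit without 1 library 0 were. Of 34 chemokine, cytokine and NF-κB genes 1 was higher, CXCL14, and 3 lower. The lower ones were the monocyte attractant CCL2 (6.27, 1.87 and 6.54 against 0.311, 0.815 and 0.683 FPKM, change -1.77, SE 0.36, adjusted p = 0.0308), the neutrophil attractant CXCL2 (change -1.35, SE 0.24, adjusted p = 0.0244) and the growth factor CSF1 (change -0.96, SE 0.22, adjusted p = 0.0395). They numbered 0, 11 and 5 without controls 1, 2 and 3 and 0 without any 1 overexpressing library. NFKBIA, the inhibitor of NF-κB, was at 172, 118 and 166 against 273, 169 and 212 FPKM and did not pass (adjusted p = 0.175).

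Genes of RNA processing were lower in part. Of 46 genes of transcription termination, paraspeckles and splicing 14 were called lower and 1 higher, with a median of -0.25. Paraspeckles are nuclear bodies built on the long noncoding RNA NEAT1 by proteins such as SFPQ and PSPC1, and these 3 genes were called lower. SFPQ was at 72, 77.3 and 43.6 FPKM in the controls and 14.6, 17 and 15.3 FPKM with overexpression (change -1.93, SE 0.21, adjusted p = 0.0086). NCOA5, a nuclear receptor coactivator, was at 25.9, 28.5 and 14.5 against 4.38, 5.39 and 4.55 FPKM (change -2.0, SE 0.24, adjusted p = 0.00934). In both genes control 3 is the lowest control and still well above the overexpressing libraries.

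The other members called lower include ZC3H4, the splicing factors SRSF1, SRSF3 and SRSF6, the helicase DDX5 and the cleavage factor CPSF6. SF1, which recognises the branch point of introns and was named for its small p, was at 65.2, 57.4 and 47.4 against 23, 23.2 and 23.1 FPKM (change -1.25, SE 0.14, adjusted p = 0.0086). CLK1, a kinase of splicing factors, was the member called higher (4.82, 5.72 and 4.77 against 10.9, 9.32 and 10.9 FPKM, change 0.90, SE 0.13, adjusted p = 0.0141). HNRNPA1 (223, 256 and 163 against 267, 203 and 230.1 FPKM) and HNRNPA2B1 (176, 172 and 113 against 169.6, 126 and 131 FPKM), the most abundant members that did not pass, overlap between the groups. The lower members numbered 3, 16 and 19 without controls 1, 2 and 3 and 1, 4 and 1 without overexpression replicates 1, 2 and 3. The median stayed between -0.34 and -0.19. Control 3 was the lowest control in 32 of the 46.

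**Figure D4:**
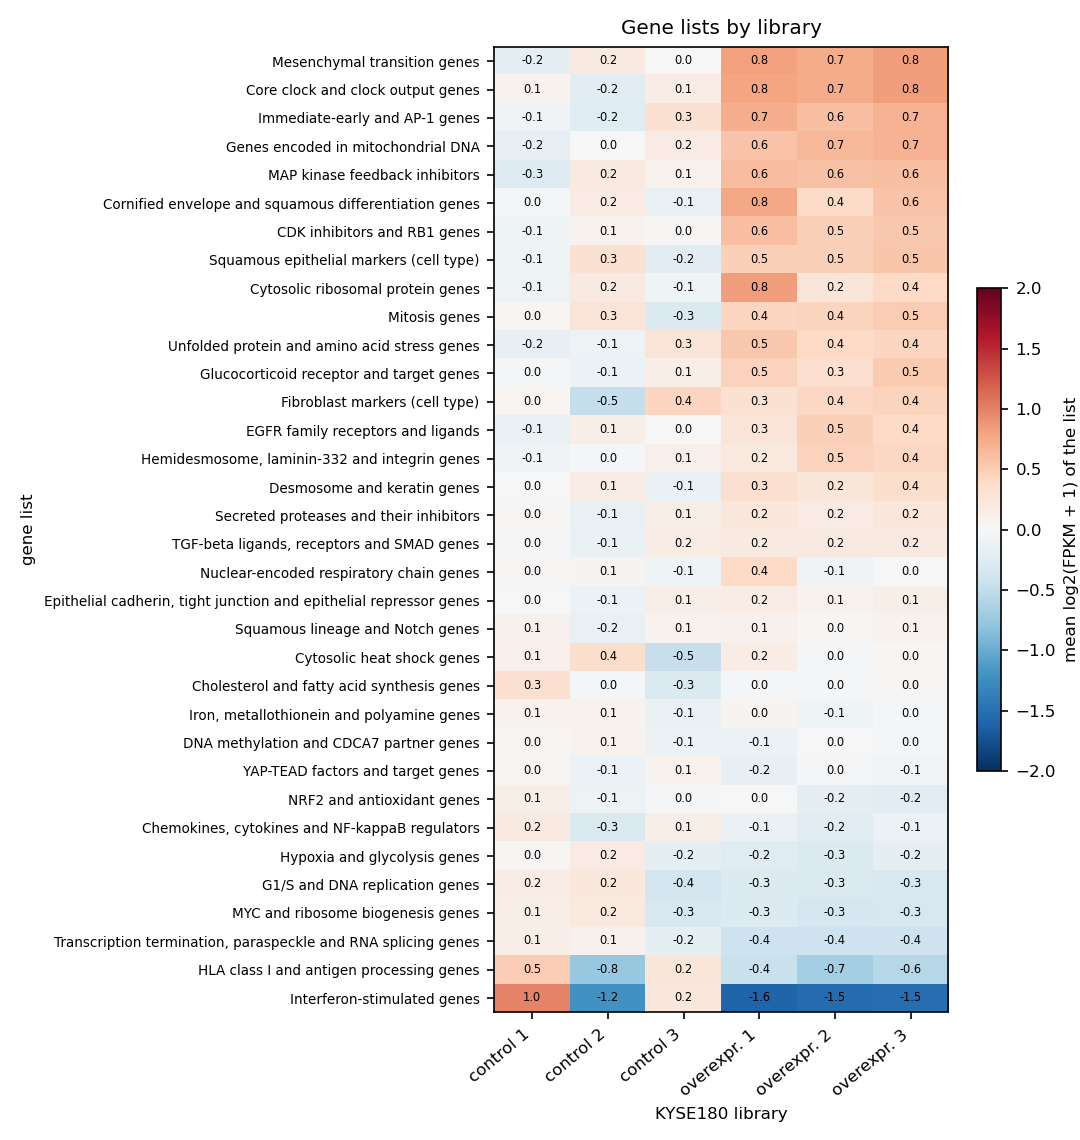
Mean log2(FPKM + 1) of the tested members of each gene list (rows) in the 6 KYSE180 libraries (columns), less the mean of the 3 controls, in colour and printed in each cell. Interferon-stimulated genes are lowest in control 2 among the controls, and mitosis and G1/S genes are lowest in control 3, and overexpression replicate 1 is the highest library for ribosomal protein genes.

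Mitosis genes had 10 of 45 members called higher and 0 lower (median 0.43). PTTG1, known as securin, was at 46, 55.9 and 45.9 FPKM in the controls and 137, 93.7 and 103 FPKM with overexpression (change 1.15, SE 0.17, adjusted p = 0.0164). NEK2, a kinase of the centrosome, was at 21, 23.3 and 19.4 against 45.9, 36.2 and 42.5 FPKM (change 0.93, SE 0.13, adjusted p = 0.014). KIF2C, a kinesin that shortens microtubules, also rose (change 1.02, SE 0.14, adjusted p = 0.0131). UBE2C (132, 161 and 86.2 against 267, 201 and 229 FPKM, adjusted p = 0.0546) and CDC20 (108, 155 and 86.2 against 164, 127 and 148 FPKM, adjusted p = 0.307) did not pass. Control 3 was the lowest control in 42 of the 45 genes and control 2 the highest in 41. The higher members numbered 0, 18 and 7 without controls 1, 2 and 3 and 0, 3 and 0 without overexpression replicates 1, 2 and 3.

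Of 43 G1/S and DNA replication genes 0 were called higher and 1 lower, CCNE2, the cyclin of S phase entry (3.12, 3.73 and 1.68 against 0.97, 1.23 and 1.0 FPKM, change -0.86, SE 0.21, adjusted p = 0.0444). The list's median was -0.32. Its mean level was 4.46 and 4.51 in controls 1 and 2 and 3.94 in control 3, below the 3.99 to 4.03 of the overexpressing libraries. Without control 3, 19 of the 43 were called lower, without controls 1 and 2 the number was 0 and 1, and without any 1 overexpressing library it was 0. The helicase subunit MCM7 was at 189, 173 and 120.2 against 154, 139.9 and 147 FPKM and did not pass (adjusted p = 0.751).

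The list of cyclin-dependent kinase inhibitors, RB1 family genes and CCNG2 had 4 of 9 members called higher and 0 lower (median 0.67). CDKN1A was at 7.16, 9.56 and 8.23 FPKM in the controls and 21.7, 20.1 and 20.5 FPKM with overexpression (change 1.23, SE 0.13, adjusted p = 0.0086). CDKN2D was at 8.02, 7.95 and 7.96 against 22.2, 12.1 and 17.6 FPKM (change 0.99, SE 0.20, adjusted p = 0.0305). The others were CDKN1B and CCNG2, an unusual cyclin of arrested cells (change 0.96, SE 0.13, adjusted p = 0.0125), while RB1 did not pass (adjusted p = 0.459). The 4 became 1, 4 and 5 without controls 1, 2 and 3 and 0, 3 and 0 without overexpression replicates 1, 2 and 3.

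MYC and ribosome biogenesis genes had 3 of 36 members higher and 5 lower (median -0.41). The 3 higher ones, MXD1, MXD3 and MXI1, encode factors that compete with MYC for its partner MAX. MXD1 was at 1.98, 3.96 and 2.08 against 5.65, 5.85 and 6.24 FPKM (change 0.95, SE 0.21, adjusted p = 0.0347). TFRC, the transferrin receptor, was at 89.9, 113 and 57.2 against 30.7, 36.5 and 29.6 FPKM (change -1.35, SE 0.24, adjusted p = 0.0238). NOP56, of the nucleolar RNA-modifying particle, was at 34.6, 35.5 and 22.2 against 16, 14.8 and 15.3 FPKM (change -0.93, SE 0.18, adjusted p = 0.0293). In both of these control 3 is the lowest control. The lower members numbered 0, 3 and 19 without controls 1, 2 and 3 and 0 without any 1 overexpressing library, and control 3 was the lowest control in 29 of the 36 genes.

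The unfolded protein response, by which a loaded endoplasmic reticulum raises its chaperones, and the amino acid stress response had 8 of 37 members higher and 1 lower (median 0.34). DDIT3 was at 6.32, 5.64 and 13.9 FPKM in the controls and 33.7, 23.6 and 28.3 FPKM with overexpression (change 1.70, SE 0.30, adjusted p = 0.0238). ASNS, asparagine synthetase, was at 2.1, 2.33 and 4.67 against 9.52, 9.32 and 9.5 FPKM (change 1.43, SE 0.23, adjusted p = 0.0186). HSPA5, the main chaperone of the reticulum, was at 248, 259.8 and 539 against 939.8, 784 and 819 FPKM (change 1.37, SE 0.32, adjusted p = 0.0396). In all 3 control 3 is the highest control, above the other controls and below every overexpressing library, and it was the highest control in 28 of the 37 genes. SLC7A11, the cystine transporter, was lower (32.7, 31 and 26.3 against 15.4, 21.6 and 19.9 FPKM, change -0.64, SE 0.15, adjusted p = 0.0434), and HSP90B1 did not pass (adjusted p = 0.0555). The higher members numbered 0, 7 and 13 without controls 1, 2 and 3 and 0, 2 and 0 without overexpression replicates 1, 2 and 3.

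The stress element of this response, CCAAT and CCACG with 9 bases between them, was searched on both strands. It lies before the start of 6 of the 34 listed genes with a promoter in the table, against 0.0806% of all promoters, and 1 of the 6 was called, HSPA5. Its window is shown with the element in capitals.
HSPA5 (chr9:125241376-125241424, minus strand): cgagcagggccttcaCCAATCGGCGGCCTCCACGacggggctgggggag

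Cytosolic heat shock genes had 3 of 23 members higher and 0 lower (median 0.10, and -0.02 with libraries scaled to total reads): HSPA2 (change 1.05, SE 0.17, adjusted p = 0.0186), the factor HSF2 and the co-chaperone BAG3. The most abundant member, HSPB1, was at 883, 842 and 856 against 1379, 869.8 and 1039 FPKM and did not pass (adjusted p = 0.431), with the controls close together. For other chaperones control 3 was low. HSP90AB1 was at 903, 1093 and 532 FPKM in the controls and 957, 874 and 864 FPKM with overexpression and did not pass (adjusted p = 0.772). HSPA8, named after its values were seen, was at 249, 338 and 74 against 139, 126 and 131 FPKM (adjusted p = 0.549). Control 3 was the lowest control in 18 of the 23 genes, and without it 6 were called lower, against 0 in each other fit without 1 library. The 3 higher members became 0 without control 1 or any 1 overexpressing library.

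With all 6 libraries, squamous differentiation lists had calls in 1 direction only. Of 34 cornified envelope and differentiation genes 15 reached a mean of 1 FPKM. Of these, 3 were called higher (20%, against 4.65% over all genes tested) and 0 lower (median 0.33). Besides KRTDAP these were SPRR1A, a cross-linked precursor of the envelope (0.216, 1.2 and 0 against 6.87, 3.72 and 4.82 FPKM, change 2.11, SE 0.31, adjusted p = 0.0148), and LYPD3 (4.51, 5.71 and 5.82 against 12.5, 8.35 and 10.2 FPKM, change 0.83, SE 0.17, adjusted p = 0.0308). SPRR1A held 1, 6 and 0 reads in the controls and 30, 18 and 24 with overexpression. KRTDAP and SPRR1A passed the filter only through the overexpressing group and so had to differ. With both among the 3 called, the 20% cannot be set against the 4.65%. Of 25 desmosome and keratin genes 1 was higher (4%), KRT1 (0.725, 0.995 and 0.122 against 2.83, 3.41 and 3.9 FPKM, change 1.47, SE 0.22, adjusted p = 0.0159). KRT5 was at 821, 923 and 739 against 1365, 1279.7 and 1452 FPKM (adjusted p = 0.0891) and KRT14 at 389, 1412 and 274 against 1745, 1301 and 1489 FPKM (adjusted p = 0.124), control 2 being as high as the overexpressing libraries for KRT14. Of the 25, 7 were called higher without control 2, 1 without control 3 and 0 without control 1 or any 1 overexpressing library. Without control 2, and likewise without control 3, 1 of the 25 was called lower. KRT4, described above, belongs to this list and was lower without passing (limma, change -2.94, adjusted p = 0.144). Without controls 1, 2 and 3 the higher cornified envelope genes numbered 1, 5 and 4, and without overexpression replicates 1, 2 and 3 they numbered 1, 2 and 1.

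Of 24 squamous lineage and Notch genes 4 were called higher and 0 lower (median -0.06). HES1, the classical Notch target, was at 32.7, 26.1 and 47.3 against 88.9, 60.0 and 71.3 FPKM (change 1.06, SE 0.23, adjusted p = 0.0355). The epithelial factors KLF5 (change 0.70, SE 0.15, adjusted p = 0.0331) and TFAP2C were also called. SOX2 was at 176, 151 and 305 against 399.5, 312 and 349.8 FPKM (adjusted p = 0.0947) and TP63 at 71.1, 65.1 and 98.1 against 101, 124 and 123 FPKM (adjusted p = 0.0818). For these lineage factors the groups do not overlap, and neither passed. The 4 became 0, 3 and 6 without controls 1, 2 and 3 and 0 without any 1 overexpressing library. Without control 2, 2 members were called lower, against 0 in each other fit without 1 library.

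MIR205, the gene of a microRNA abundant in squamous epithelium, was at 11.6, 2.45 and 9.22 FPKM in the controls and 39.9, 35.5 and 38.5 FPKM with overexpression (change 2.35, SE 0.43, adjusted p = 0.0252). It lies on chromosome 1 inside its host gene MIR205HG, named after its values were seen, which was at 25.7, 40.6 and 40.8 against 79.6, 67.9 and 73.8 FPKM (change 1.05, SE 0.19, adjusted p = 0.0249). Reads of the host and of the microRNA precursor cannot be told apart in this table, so the values say nothing of the mature microRNA, whose main arm is shown with its seed (bases 2 to 8) in capitals.
hsa-miR-205-5p (chr1:209432166-209432187, plus strand, GRCh38.p14): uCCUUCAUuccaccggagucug

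Junction, matrix and transition genes had rises on each side of the epithelial and mesenchymal divide. Of 30 mesenchymal transition genes 14 reached a mean of 1 FPKM. Of these, 7 were called higher and 1 lower (median 0.79). TWIST1, a factor that drives the transition, was at 2.46, 4.24 and 4.04 FPKM in the controls and 17, 12.2 and 12.1 FPKM with overexpression (change 1.70, SE 0.20, adjusted p = 0.00947), and all 3 overexpressing libraries lie above every control. WNT5A, a ligand of noncanonical Wnt signalling, was lower (41.1, 21.9 and 31.7 against 12.7, 15.6 and 13.4 FPKM, change -1.09, SE 0.22, adjusted p = 0.0296), and SNAI2 did not pass (adjusted p = 0.566). The higher members numbered 2, 8 and 7 without controls 1, 2 and 3 and 1, 4 and 1 without overexpression replicates 1, 2 and 3.

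Of 32 cadherin, tight junction and epithelial repressor genes 4 were called higher and 0 lower (median 0.06, and -0.05 with libraries scaled to total reads). They were the junction protein F11R (25.1, 23.6 and 26.5 against 54.2, 36.4 and 39.4 FPKM, change 0.75, SE 0.16, adjusted p = 0.0347), the polarity genes PARD6B and PARD3, and ESRP1, which sets epithelial splicing (34.6, 39.7 and 37 against 56, 58 and 58.9 FPKM, change 0.62, SE 0.11, adjusted p = 0.0238). EPCAM was at 136, 148 and 125 against 158, 129 and 129 FPKM and did not pass. Of 25 hemidesmosome, laminin-332 and integrin genes, which anchor basal cells, 4 were higher and 0 lower (median 0.35), and 24 of the 25 changes were above 0. ITGA6, the integrin chain of hemidesmosomes, was at 23.5, 40.6 and 27.6 against 71.9, 87 and 83.8 FPKM (change 1.41, SE 0.20, adjusted p = 0.014). Its partner ITGB4 was at 74.1, 76.7 and 76 against 77.3, 88.1 and 90.1 FPKM and did not pass (adjusted p = 0.381). Without controls 1, 2 and 3 the higher junction genes numbered 0, 4 and 5 and the higher anchoring genes 0, 5 and 4, and both counts were 0 without any 1 overexpressing library.

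Among TGF-β ligands, receptors and SMAD genes 3 of 30 were higher and 0 lower (median 0.15): the pseudoreceptor BAMBI (change 0.83, SE 0.18, adjusted p = 0.0349), the ligand TGFB1 and the ubiquitin ligase SMURF1. Of 22 secreted proteases and inhibitors 3 were higher, MMP2 and MMP15 among them, and 2 lower, the elastase inhibitor SLPI (119, 43.1 and 78.8 against 35.1, 22.1 and 28.4 FPKM, change -1.37, SE 0.34, adjusted p = 0.0478) and the kallikrein KLK10 (change -1.10, SE 0.23, adjusted p = 0.0329). Of 21 YAP-TEAD genes 2 were higher and 2 lower (9.52% each). The higher share was 10% for TGF-β genes, and proteases had 13.6% higher and 9.09% lower. Over all genes tested the shares were 4.65% higher and 4.43% lower, and each of these list shares rests on 2 or 3 genes. The coactivator WWTR1 was at 11.4, 11.8 and 13 against 17.9, 18.8 and 18.4 FPKM (change 0.57, SE 0.11, adjusted p = 0.0274), and the ectonucleotidase NT5E was at 2.16, 1.95 and 1.25 against 0.136, 0.382 and 0.144 FPKM (change -1.18, SE 0.15, adjusted p = 0.0114). The higher TGF-β genes numbered 0, 3 and 6 without controls 1, 2 and 3 and 0 without any 1 overexpressing library. The higher protease genes numbered 1, 8 and 5 and then 1, 3 and 1, and the lower ones 0, 5 and 1 and then 0. For YAP-TEAD genes the higher counts were 0, 2 and 2 and then 0, 1 and 0, and the lower ones 1, 3 and 3 and then 0, 1 and 0.

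**Figure D5:**
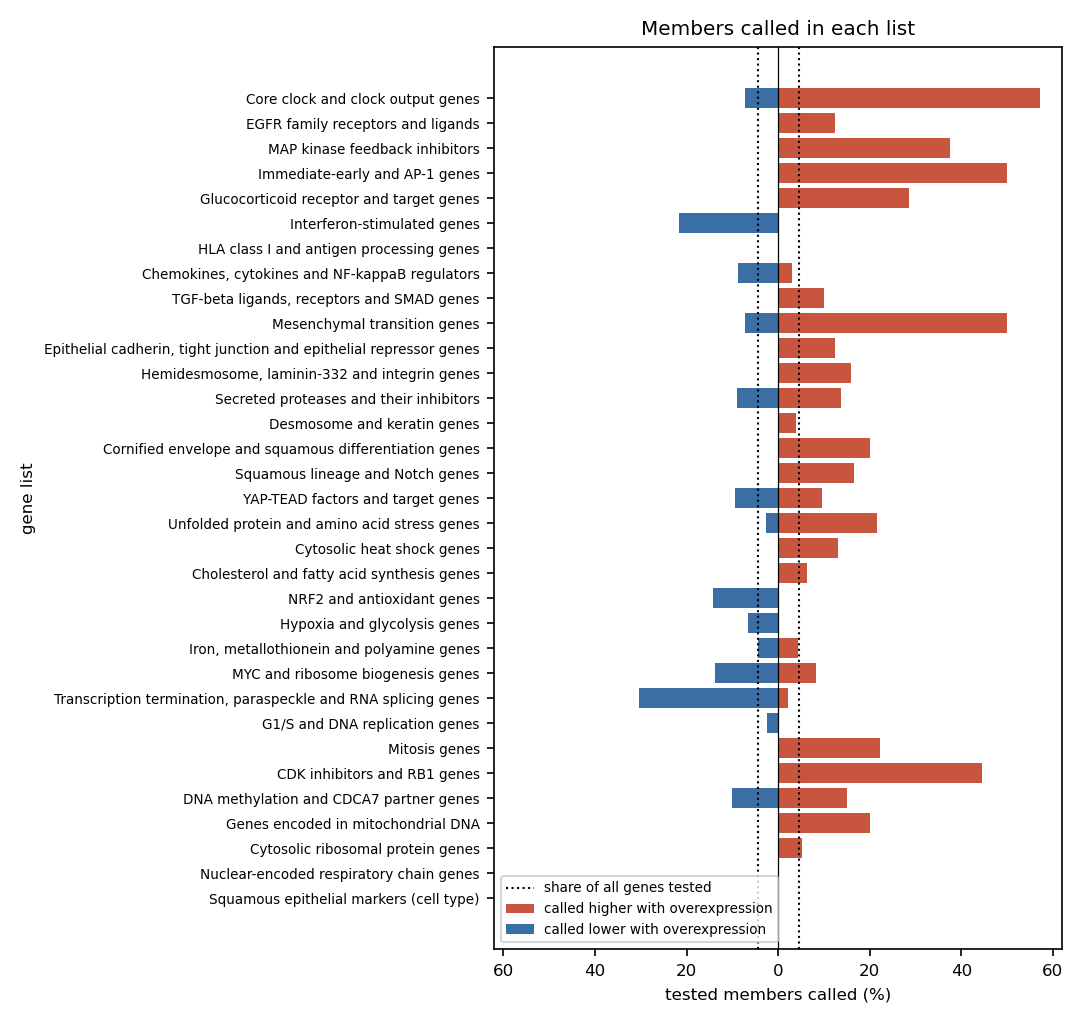
Share of the tested members of each list with at least 8 such members called higher (red, to the right) or lower (blue, to the left) with overexpression, in percent, with dotted lines at the shares of all genes tested, 4.65% and 4.43%. Clock, immediate-early and mesenchymal genes and the list of CDK inhibitors and RB1 genes have the longest bars to the right. RNA processing and interferon-stimulated genes have the longest to the left. The lists were chosen with earlier results of these data known, so distances from the dotted lines are descriptions only.

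The DNA methylation and CDCA7 partner list had 3 of 20 members higher, CDCA7 itself among them, and 2 lower (median -0.07). HELLS was at 6.19, 6.31 and 5.56 FPKM in the controls and 3.66, 4.35 and 3.89 FPKM with overexpression (change -0.50, SE 0.13, adjusted p = 0.048), so the remodeller was lower where its partner was higher. MBD3, of a deacetylase complex, was also lower (12.9, 11.4 and 8.37 against 7.28, 5.14 and 4.68 FPKM, change -0.83, SE 0.20, adjusted p = 0.0435). MBD2, which binds methylated DNA, was higher (change 0.48, SE 0.12, adjusted p = 0.048), as was GADD45A (change 1.07, SE 0.25, adjusted p = 0.0398). CDCA7L, the paralog of CDCA7, was at 22.9, 31.8 and 22 against 28.2, 36 and 35.1 FPKM and did not pass (adjusted p = 0.19). The calls of HELLS and MBD3 were kept in 1 and 1 of the 6 fits that left out 1 library, and the list had 5 lower members without control 3 and 0 in each other fit without 1 library.

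Metabolic lists held at most 4 calls each. Over all genes tested the shares were 4.65% higher and 4.43% lower. Of 28 NRF2 and antioxidant genes 4 were lower (14.3%) and 0 higher (median -0.13). They were led by SRXN1, which restores peroxiredoxins (11.6, 7.9 and 6.15 against 3.46, 3.21 and 3.94 FPKM, change -1.04, SE 0.21, adjusted p = 0.0307), with GCLM, AKR1B10 and SLC7A11. Of 30 hypoxia and glycolysis genes 2 were lower (6.67%), PFKFB3 (change -0.77, SE 0.18, adjusted p = 0.0431) and EGLN3, and 9 were without control 3. Of 32 cholesterol and fatty acid genes 2 were higher (6.25%), among them ACSS2, which makes acetyl-CoA from acetate. Iron, metallothionein and polyamine genes had 1 of 23 higher, the polyamine enzyme SAT1, and 1 lower, TFRC (4.35% each). The nuclear-encoded respiratory chain had 0 of 41 members called (limma, with 4 at an unadjusted p under 0.05; limma-voom called 1). In these 5 lists 0 members were called either way without control 1, or without any 1 overexpressing library.

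Genes encoded in mitochondrial DNA had 3 of 15 members higher and 0 lower (median 0.46). MT-RNR2 was at 1550.3, 2368 and 2488 FPKM in the controls and 12831, 10242 and 12537 FPKM with overexpression (change 2.50, SE 0.46, adjusted p = 0.0263), while MT-CO1 did not pass (7808, 6548 and 9578 against 9643, 11367 and 10892 FPKM, adjusted p = 0.658). MT-RNR1 and MT-ND6 were the other members called. The 3 became 0, 2 and 3 without controls 1, 2 and 3 and 0 without any 1 overexpressing library. Of 78 cytosolic ribosomal protein genes 4 were higher and 0 lower, close to the share of all genes, with a median of 0.53 and 75 of 78 changes above 0. Their mean level was 6.73, 7.02 and 6.74 in the controls and 7.67, 7.08 and 7.23 with overexpression, so that overexpression replicate 1 is the highest library and control 2 comes near replicate 2. RPL4 was at 167, 204 and 189 against 320.3, 282 and 279 FPKM (change 0.65, SE 0.15, adjusted p = 0.0424). The 4 became 0, 12 and 3 without controls 1, 2 and 3 and 0 without any 1 overexpressing library. Ribosomal protein genes have many near-identical pseudogenes, which makes their counts uncertain.

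The called genes were also described by gene type, transcription factor family and gene length. Length enters FPKM and so the choice of genes, and the families share genes with the lists above. Over all genes tested the shares were 4.65% higher and 4.43% lower. Protein-coding genes made up 10842 of the 12387 tested, with 548 higher (5.05%) and 404 lower (3.73%). Processed pseudogenes had 27 of 348 higher (7.76%) and 8 lower (2.3%), and lincRNAs 25 of 326 higher (7.67%) and 22 lower (6.75%). Antisense genes, near the shares of all genes, had 20 of 399 higher (5.01%) and 27 lower (6.77%). Sense intronic genes had 11 of 62 higher (17.7%) and 5 lower (8.06%). The sources used here do not say whether the counting used strand. Sense intronic and antisense reads therefore cannot be told apart from those of the overlapping genes. Of 891 genes that the table assigns to a transcription factor family 72 were higher (8.08%) and 32 lower (3.59%). In the bZIP family, which includes FOS, JUN, DBP and TEF, 9 of 37 were higher (24.3%) and 0 lower, and in the ETS family 5 of 17 (29.4%) and 0. In the bHLH family, which includes TWIST1 and HES1, 7 of 45 were higher (15.6%) and 1 lower (2.22%). C2H2 zinc fingers, near the shares of all genes, had 14 of 347 higher (4.03%) and 20 lower (5.76%). Median gene length was 3837 bases for genes called higher, 4330 for those called lower and 4591 for all tested.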

How the data were processed

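RNA from whole cultures of KYSE180 was sequenced as 3 native and 3 CDCA7-overexpressing libraries. The deposited values are FPKM, a unit read from the values, since the header names none. The authors used HISAT2 2.0.5 and DESeq2 1.20.0, per the submitters' processing notes, which give no role; the counting tool and its use of strand are not given in the sources used here. Those notes name the mouse build mm10, but start, end and strand of all 58735 genes match GENCODE 29 (GRCh38). FPKM times gene length gave whole reads for 100% of values (within 0.01 reads), which recovered 16282281 to 18636148 reads per library. Each FPKM was divided by an effective library size, not by total reads.

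Genes entered the test where 3 or more libraries held at least 10 reads each, scaled to a library of median size, and 15 in all. The test was limma 3.58.1 (trend, two-sided, Benjamini-Hochberg adjusted) on log2(FPKM + 1), over the 6 libraries with no covariate. The added 1 understates changes of low genes. Tests on simulated data preceded the fit. Alternatives were total reads or new size factors, 0.1 in place of 1, other filters, limma-voom on the recovered reads (1831 genes called against 1447), a fit of all 12 libraries, the replicate number as a block, and each library left out in turn.

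Named genes are CDCA7, the 10 largest called changes and the 8 smallest adjusted p per direction, up to 3 called members per direction and 2 uncalled ones of each list, the 10 widest control SDs and genes called in every fit without 1 library; genes named only to complete a list's count carry no values. The genes and the 37 lists were chosen with earlier results of these data known. Some list members and 1 list are not reported here.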

Additional observations from a re-analysis of the deposited data

How the results depend on the processing

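The count of genes called in the full table was 1447 and fell to 3 with no filter on low values, rose to 2997 with all 12 libraries in the fit, and ranged from 19 to 2335 when 1 library was left out. Among genes with a mean FPKM of at least 1 the corresponding counts were 1155, 3, 2307 and 16 to 1953. Of genes called by at least 1 on the log2 scale there were 280, with 801 when 0.1 was added in place of 1, 3 with no filter, 885 by limma-voom and 18 to 534 without 1 library. The cause of these shifts was not tested. With libraries scaled to total reads 504 genes of the full table were higher and 1228 lower, against 741 and 706. CDCA7 kept its direction throughout (1.31 to 1.54 without 1 library); its adjusted p from limma was 0.0663 with no filter (change 1.40) and 0.0573 without overexpression replicate 3 (change 1.34). The median control SD was 0.19, and 0.22 with 0.1 added.

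With the replicate number as a replicate block 603 genes of the full table and 478 with a mean FPKM of at least 1 were called, and CDCA7 had an adjusted p of 0.0272. The numbers do not pair the libraries: deviations of same-numbered libraries correlated at -0.09, -0.07 and 0.07.

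Of the 78 called genes other than CDCA7 whose changes are printed, 57 kept the call under the replicate block, 2 with no filter, and 73 to 77 with each of the other alternatives that kept all 6 libraries. None of them reversed direction in any alternative run. Depth limits the short genes that were not tested and changes of genes near 1 FPKM.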

Other observations

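Chromosome 20 had the highest median change of the autosomes (0.11), close to chromosome 19 (0.10). Chromosome 20 was looked at after the values were seen. Of its 339 tested genes with a mean FPKM of at least 1, 32 were called higher (9.44%) and 11 lower (3.24%). From 30 Mb on (GRCh38), 29 of 230 such genes were called higher and 5 lower, and before 30 Mb 3 of 109 and 6. Between 50 and 57 Mb 10 of 23 such genes were called higher and 0 lower. There 21 of the 23 changes were above 0, and the median change was 0.54. The bounds of this stretch were also set after the values were seen, so its share is a description and not a test. ZNF217, a repressor gene in this stretch, was at 22.1, 21.5 and 23.4 FPKM in the controls and 40.4, 50.1 and 51.5 FPKM with overexpression (change 1.04, SE 0.13, adjusted p = 0.0101), with no overlap between the groups. PTPN1, a tyrosine phosphatase gene of the same stretch, was at 21.9, 26 and 22.1 against 32.7, 37.6 and 36.8 FPKM (change 0.59, SE 0.12, adjusted p = 0.0308).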
